A study of Bos taurus with 11 samples.

Results

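Claudins and other junction and adhesion genes of epithelial cells were followed in the uterine lining of dairy cows after calving. Of 10 such genes, 9 had a probe set on the Affymetrix bovine array that the platform annotation pairs with exactly 1 of their symbols: CLDN1, CLDN3, CLDN4, CLDN7, CLDN10, F11R, TJP1, CDH1 and EPCAM. The remaining one, OCLN, is not analysed here. The 9 genes had 13 probe sets among 24016 tested, and CLDN1, TJP1, CDH1 and F11R had 2 each. Where a gene had several, the one brightest on average across the 11 arrays was taken as its main probe set.

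Tight junctions seal the gap between neighbouring epithelial cells near their upper face. Claudins are the membrane proteins that form the strands of this seal and set which ions and molecules can pass, F11R (JAM-A) is an immunoglobulin-type adhesion protein at the same place, and TJP1 (ZO-1) is a scaffold beneath the membrane. CDH1, E-cadherin, holds cells together in the adherens junction below, and EPCAM is an adhesion protein of epithelial cell membranes that binds claudin-7. In the endometrium the surface and gland epithelium carries these junctions, and after calving that surface has to be rebuilt.

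The cows were Holstein-Friesian, had calved more than once (parity 4.7 on average) and were slaughtered 14 ± 0.4 days after calving. Endometrial RNA of each cow was hybridised to 1 array. The severe group (n = 6), meant to enter severe negative energy balance, was fed 25 kg silage with 4 kg concentrate daily under a milking frequency of 3 per day. The mild group (n = 5) could eat silage freely, was given 8 kg concentrate daily and had a milking frequency of 1 per day. Both regimes began on day 2 after calving, and feed and milking differed together, so their parts cannot be told apart. Values are RMA log2 values, a scale on which a difference of 1 is a doubling. A signal under 5.52 is called dim here, since 40% of probe sets averaged less. Levels of different genes are not set against each other, because probes differ in how strongly they bind.

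The array medians were equal, at 6.20, and Pearson's r between 2 arrays lay between 0.948 and 0.991 across probe sets. KRT18 and KRT19, keratins of simple epithelia, were above the dim limit in every cow, and KRT8 was dim in every cow. The stromal collagen COL1A1 had a mean of 13.1 in severe cows, against 13.3 in mild cows, and the muscle genes MYH11 (13.0 and 12.9) and DES (11.4 and 11.8) gave high signals in both groups too, so the RNA was that of a mixed tissue. In such RNA fewer cells of a type and less RNA per cell cannot be told apart.

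Limma called 0 of the 24016 probe sets at an adjusted p under 0.05, and hence 0 of the 9 genes. At an unadjusted p under 0.05 it gave 12.8% of all probe sets, 5.88% lower and 6.97% higher in severe cows. Among the 9 genes 2 lay below that unadjusted limit, CLDN1 and CLDN10, both lower in severe cows, and 0 were higher. In 0 of 9 genes were the groups free of overlap, against 1.07% of all probe sets. The median log2 difference, severe minus mild, was -0.05 over the 9 genes and -0.00378 over the main probe sets of all 9155 genes. The claudins did not share a direction: CLDN1, CLDN10, CLDN7 and CLDN3 averaged lower in severe cows, whereas CLDN4 averaged higher.

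**Figure D1:**
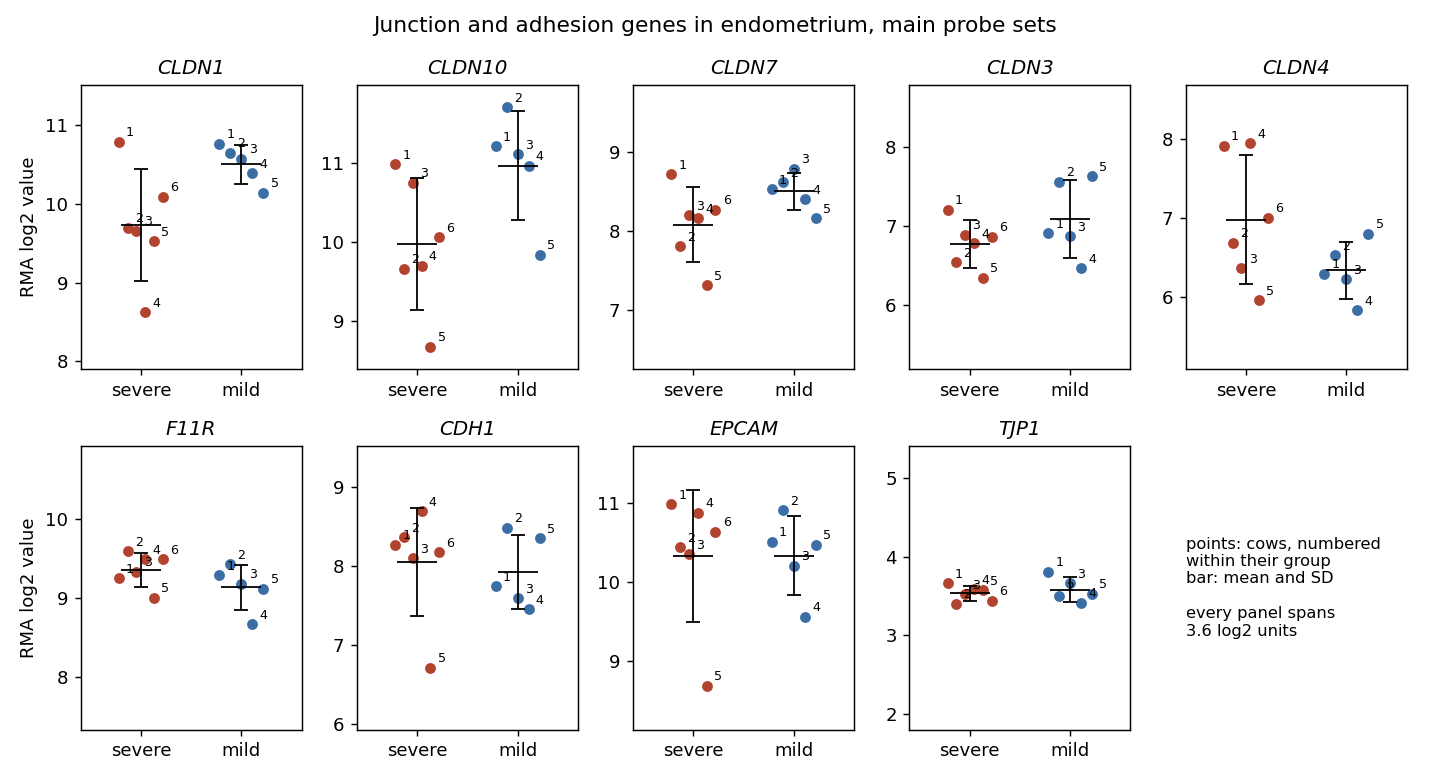
RMA log2 values (vertical axis) of the main probe set of each gene, with severe cows on the left and mild cows on the right of each panel; points are cows numbered within their group, and bars give the mean and SD. CLDN1 lies below the lowest mild cow in 5 of 6 severe cows, while severe 5 stands far below the other severe cows in EPCAM and CDH1.

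CLDN1, a claudin that is needed for the barrier of many epithelia, was 10.79, 9.69, 9.66, 8.63, 9.52 and 10.09 in severe 1 to 6, against 10.76, 10.65, 10.57, 10.39 and 10.14 in mild 1 to 5. In 5 of 6 severe cows CLDN1 was below the lowest mild cow, and severe 1 was above the highest. Severe cows averaged 9.73 ± 0.71 (SD, n = 6), against 10.50 ± 0.24 (SD, n = 5) for mild cows. Severe minus mild was -0.77 ± 0.30 (SE; 95% interval -1.42 to -0.12), a level 0.586 times that of mild cows. Its limma p was 0.0245 and its adjusted p 0.339, and the exact two-sided permutation p over the 462 splits of the cows was 0.0433. The other CLDN1 probe set gave -0.95 ± 0.38 (SE). Severe 4, the cow with the lowest CLDN1, had the highest mean of neutrophil markers, 10.5, but also the highest mean of KRT18 and KRT19, 9.73. Without severe 4 the difference was -0.55 ± 0.23 (SE), and without severe 1 it was -0.98 ± 0.24 (SE, limma adjusted p = 0.133). Severe 1 was the only severe cow above the lowest mild cow, so its removal separates the groups by construction.

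CLDN10, which forms ion channels between epithelial cells, was 10.98, 9.66, 10.75, 9.70, 8.67 and 10.06 in severe 1 to 6, against 11.21, 11.71, 11.11, 10.97 and 9.84 in mild 1 to 5. The groups overlapped, since severe 1, 3 and 6 lay above mild 5. Severe cows averaged 9.97 ± 0.84 (SD, n = 6), against 10.97 ± 0.69 (SD, n = 5) for mild cows. Severe minus mild was -0.997 ± 0.42 (SE; 95% interval -1.91 to -0.09). The level was 0.501 times that of mild cows, with a limma p of 0.0343, an adjusted p of 0.359 and an exact two-sided permutation p of 0.0671. Severe 5 was the lowest and mild 2 the highest of the 11 cows. These 2 arrays had the largest mean distance from the median array, 0.236 and 0.227, but severe 2 was close to them at 0.226. Without severe 5 and mild 2 the difference was -0.55 ± 0.36 (SE, limma adjusted p = 0.585).

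CLDN7, the claudin that binds EPCAM, was 8.71, 7.80, 8.20, 8.16, 7.31 and 8.27 in severe 1 to 6, against 8.53, 8.62, 8.79, 8.40 and 8.16 in mild 1 to 5. Severe cows averaged 8.07 ± 0.47 (SD, n = 6), against 8.50 ± 0.24 (SD, n = 5) for mild cows, and severe minus mild was -0.42 ± 0.21 (SE; 95% interval -0.89 to 0.04; limma adjusted p = 0.433). Severe 5 was again lowest, and severe 1 lay within the mild range. Without severe 5 the difference was -0.27 ± 0.16 (SE), and without severe 1 it was -0.55 ± 0.19 (SE, limma adjusted p = 0.215).

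CLDN3 and CLDN4, 2 related barrier claudins, are neighbouring genes on chromosome 25, with 0 annotated genes between them in the RefSeq table of ARS-UCD2.0. CLDN3 was 7.21, 6.54, 6.89, 6.78, 6.34 and 6.87 in severe 1 to 6, against 6.91, 7.56, 6.87, 6.46 and 7.63 in mild 1 to 5. Its log2 difference of -0.32 ± 0.22 (SE; 95% interval -0.79 to 0.16; limma adjusted p = 0.564) was within the spread between cows. CLDN4 was 7.91, 6.69, 6.36, 7.94, 5.96 and 7.003 in severe 1 to 6, against 6.29, 6.53, 6.22, 5.83 and 6.80 in mild 1 to 5. Severe 1 and 4 stood highest, above every mild cow, with severe 6 next, and the other severe cows lay within the mild range. CLDN4 averaged 6.98 ± 0.81 in severe cows (SD, n = 6), against 6.33 ± 0.36 in mild cows (SD, n = 5). Severe minus mild was 0.64 ± 0.35 (SE; 95% interval -0.13 to 1.41; limma adjusted p = 0.465). Thus the pair of neighbours had differences of opposite sign, and neither difference passed the test.

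F11R, main probe set, was 9.25, 9.59, 9.33, 9.49, 8.999 and 9.49 in severe 1 to 6, against 9.28, 9.43, 9.18, 8.66 and 9.12 in mild 1 to 5. Its log2 difference was 0.22 ± 0.14 (SE; 95% interval -0.09 to 0.53; limma adjusted p = 0.526), and the other probe set gave 0.16 ± 0.11 (SE). Mild 4 was the lowest cow on both probe sets. TJP1 was dim in all cows on both probe sets, between 3.40 and 3.66 in severe and between 3.42 and 3.81 in mild cows on the main one. Signals this low are compressed, so the TJP1 difference of -0.05 ± 0.08 (SE) is not read as a difference of the scaffold.

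CDH1 was 8.27, 8.36, 8.10, 8.70, 6.71 and 8.17 in severe 1 to 6, against 7.74, 8.48, 7.59, 7.45 and 8.35 in mild 1 to 5. Severe 5 lay below all other cows, and the remaining severe cows lay above the mild mean. Severe cows averaged 8.05 ± 0.69 (SD, n = 6), against 7.92 ± 0.47 (SD, n = 5) for mild cows, and severe minus mild was 0.13 ± 0.32 (SE; 95% interval -0.58 to 0.84; limma adjusted p = 0.899). The other CDH1 probe set had the opposite sign, -0.13 ± 0.30 (SE).

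EPCAM was 10.99, 10.44, 10.36, 10.88, 8.69 and 10.64 in severe 1 to 6, against 10.51, 10.91, 10.21, 9.57 and 10.48 in mild 1 to 5. Severe cows averaged 10.33 ± 0.84 (SD, n = 6), against 10.34 ± 0.50 (SD, n = 5) for mild cows. The difference of -0.00246 ± 0.38 (SE) had a 95% interval from -0.84 to 0.83. A doubling or halving was thus outside the interval, but changes of up to 0.83 log2 units in either direction were inside it. Severe 5 was again the lowest cow, at 8.69 against 10.36 in the next severe cow, and without it the difference was 0.33 ± 0.23 (SE, limma adjusted p = 0.573).

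Severe 5 and mild 2 touched most of these values, and the differences were computed again without both, a choice made after seeing the data. Severe 5 was the lowest severe cow for CLDN3, CLDN4, CLDN7, CLDN10, CDH1, EPCAM and F11R. Mild 2 was the highest mild cow for CLDN10, CDH1, EPCAM and F11R. For CLDN1 severe 5 lay below the severe mean, and for CLDN1, CLDN3, CLDN4 and CLDN7 mild 2 lay above the mild mean. Leaving them out therefore raises severe minus mild in all these genes by construction. The p-values of that fit are no evidence of a difference. Nor are the smaller differences of CLDN1, CLDN3, CLDN7 and CLDN10 in it evidence against one. Without both cows the differences were 0.90 ± 0.35 for CLDN4, 0.54 ± 0.19 for CDH1, 0.47 ± 0.21 for EPCAM and 0.37 ± 0.13 for F11R (SE). These 4 lay below an unadjusted limma p of 0.05, with adjusted p from 0.430 to 0.459. In that fit 5.38% of all probe sets were higher and 5.40% lower at this limit. Among the lower ones were 0 of the 9 genes, a count that the choice of cows pulls down. CLDN1 was at -0.69 ± 0.35, CLDN7 at -0.24 ± 0.18 and CLDN3 at -0.11 ± 0.22 (SE). The direction of CLDN1, CLDN10, CLDN7, CLDN3, CLDN4, CDH1 and F11R was the same with and without these arrays, while that of EPCAM was not.

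**Figure D2:**
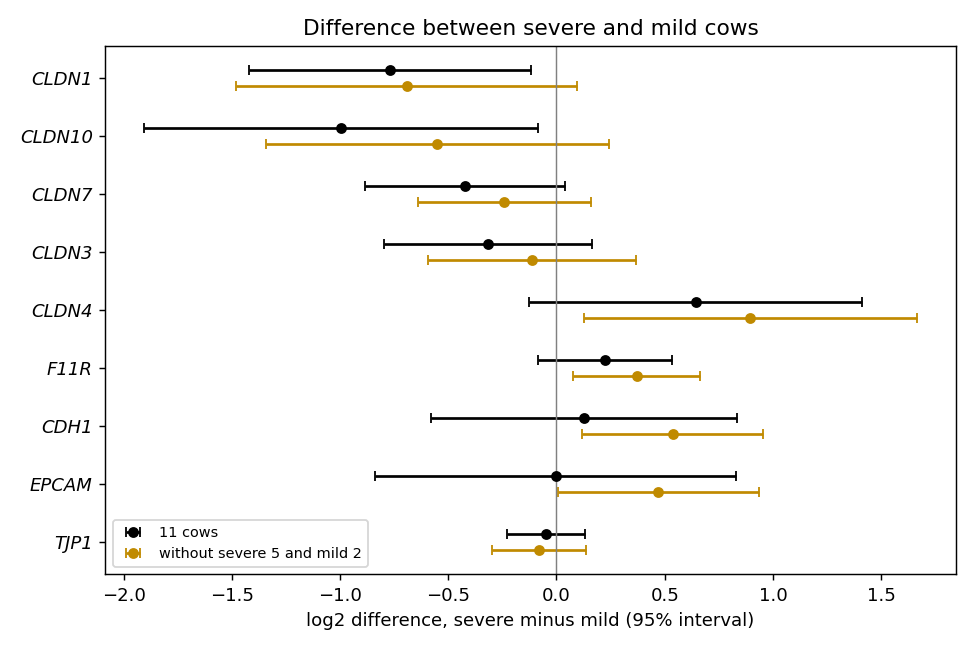
Log2 difference, severe minus mild, with its 95% interval from limma (horizontal axis) for each gene, over 11 cows in black and without severe 5 and mild 2 in ochre. The points of CLDN1 and CLDN10 lie left of 0 and that of CLDN4 right of it in both fits, and EPCAM moves from -0.00246 to 0.47. The intervals of CLDN1 and CLDN10 without the 2 cows, and that of CLDN4 over 11 cows, include 0.

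Severe 5 had the lowest epithelial and the highest leukocyte signal. Its mean of KRT18 and KRT19 was 8.09, against 8.32 to 9.73 in the other severe cows and 8.38 to 9.43 in mild cows. Its mean of 5 pan-leukocyte markers was 10.4, against 8.10 to 9.66 in the other severe cows and 7.32 to 8.39 in mild cows. Mild 2 had the highest keratin mean of the mild cows, 9.43, and the lowest leukocyte mean of all, 7.32. How far the makeup of these samples took part in the values above was not tested for each gene, but the groups could be compared relative to epithelial keratins.

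**Figure D3:**
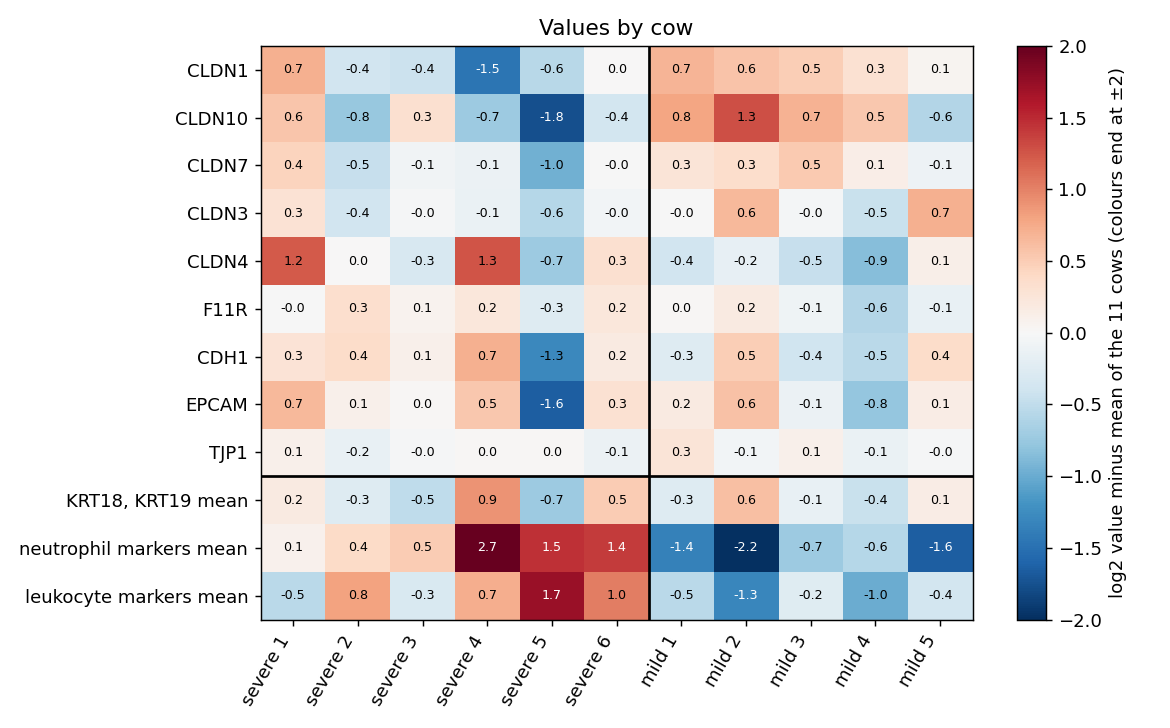
Log2 value minus the mean of the 11 cows for each gene (rows) and cow (columns, severe then mild), with the means of KRT18 and KRT19, of 5 neutrophil markers and of 5 pan-leukocyte markers below; colours end at ±2. EPCAM, CDH1 and CLDN10 are lowest in severe 5, CLDN1 is lowest in severe 4, and neutrophil markers are higher in every severe cow than in any mild cow.

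The mean of KRT18 and KRT19 was 8.84 ± 0.63 for severe cows (SD, n = 6), against 8.80 ± 0.41 for mild cows (SD, n = 5), so by these keratins the groups differed by less than the spread between cows. With this mean as a covariate, limma gave CLDN1 -0.76 ± 0.31, CLDN10 -1.01 ± 0.42 and CLDN4 0.61 ± 0.21 (SE), with adjusted p of 0.373, 0.383 and 0.341. Each of these sizes is close to that without the covariate, and the SE of CLDN4 was smaller than the 0.35 found without it. In this fit CLDN1 and CLDN10 were lower and CLDN4 higher at an unadjusted p under 0.05, as were 5.53% and 6.86% of all probe sets. With each array weighted by how well it fitted, CLDN1, CLDN7 and CLDN10 were lower and CLDN4 higher at that limit, against 8% and 8.03% of all probe sets, and 0 of the 9 passed the adjusted limit.

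On the log2 scale relative to the 2 keratins of the same array, CLDN4 was at -1.10, -1.88, -1.96, -1.79, -2.13 and -2.33 in severe 1 to 6, against -2.27, -2.90, -2.46, -2.56 and -2.17 in mild 1 to 5. All severe cows except severe 6 lay above every mild cow on this scale. The relative difference of CLDN4 was 0.61 (exact two-sided permutation p = 0.0152, unadjusted). Limma, with an SE shared by all 9 genes, gave it a 95% interval from -0.13 to 1.34 (adjusted p = 1.00). For CLDN10 the relative difference was -1.03 (exact permutation p = 0.0823, limma adjusted p = 0.481) and for CLDN1 -0.81 (exact permutation p = 0.115, limma adjusted p = 1.00). The 2 tests order the genes differently: the unadjusted limma p was 0.00595 for CLDN10, 0.0316 for CLDN1 and 0.107 for CLDN4, beside the exact permutation values above. Limma gave every one of the 9 genes the same SE on this scale, 0.38, although their spread between cows differed. The SD was 0.42 in severe and 0.29 in mild cows for CLDN4, against 1.03 and 0.47 for CLDN1. Intervals and p-values of limma on this scale therefore do not measure the spread of a single gene. The same holds for the other relative scales below, where the genes also shared 1 SE. Relative to EPCAM in place of keratins, CLDN4 was at 0.65 (exact permutation p = 0.0498) and CLDN10 at -0.99 (exact permutation p = 0.0433). These p-values belong to 9 genes relative to the keratins and 8 relative to EPCAM, and are not adjusted. On the EPCAM scale limma put 1 gene, CLDN10, below an unadjusted 0.05 as lower, against 0.404% of all probe sets. Severe 5, the cow with the lowest EPCAM, was the highest cow for CLDN4 on this scale, at -2.73. Its CLDN4 value itself, 5.96, was the lowest of the severe cows. The scale of KRT18 and KRT19 and that of EPCAM were added after seeing the data. Relative to KRT8, KRT18 and KRT19, with KRT8 dim, exact permutation p was 0.0260 for CLDN4, 0.0390 for CLDN1 and 0.0628 for CLDN10, and CLDN4 lay above every mild cow in 4 of 6 severe cows. There limma called CLDN10 at an adjusted p under 0.05, as it did 1.31% of all probe sets, and CLDN4 was higher at an unadjusted p under 0.05, as were 2.98% of all.

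**Figure D4:**
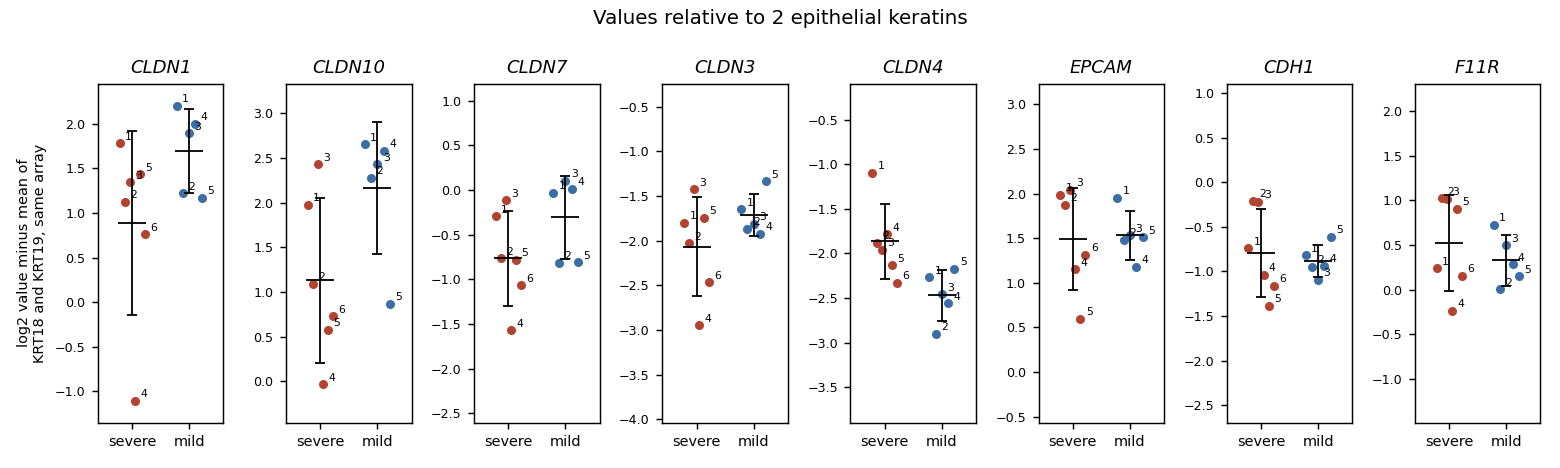
Log2 value minus the mean log2 value of KRT18 and KRT19 of the same array (vertical axis) for 8 genes, severe cows on the left and mild cows on the right; points are numbered cows, bars the mean and SD. CLDN4 lies above every mild cow in 5 of 6 severe cows, and CLDN1 and CLDN10 are lowest in severe 4.

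Neutrophil markers differed along with the groups. All 5 measured ones (CXCR1, S100A8, S100A9, S100A12 and TREM1) averaged higher in severe cows, and their mean ran from 7.89 to 10.5 in severe and from 5.59 to 7.23 in mild cows, without overlap. With that mean as a covariate CLDN1 turned to 0.26 ± 0.44 and CLDN10 stood at -0.12 ± 0.74 (SE), while CLDN4 was at 0.64 ± 0.68 (SE). At an unadjusted p under 0.05 this fit had 0 of the 9 genes in either direction, against 2.25% of all probe sets lower and 1.78% higher. As the covariate does not overlap between the groups, it takes much of their difference with it and the errors grow, so neutrophil content and regime cannot be told apart by this fit.

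The 8 genes that were not dim fell into patterns across cows. Pearson correlations of their deviations from the group mean over the 11 arrays had a median of 0.51 over 28 pairs and ran from -0.09 to 0.92. The highest was between CDH1 and EPCAM, at 0.92 (Spearman 0.76), followed by CLDN7 and CLDN10 at 0.87 (Spearman 0.82) and CLDN4 and EPCAM at 0.80 (Spearman 0.86). CLDN1 had 0.58 with CLDN10 and 0.51 with CLDN7, but 0.03 with CLDN4 and -0.09 with CDH1. Severe 5 carried part of this: without it the median was 0.26, CDH1 and EPCAM were at 0.75, CLDN7 and CLDN10 at 0.77, and CLDN10 and EPCAM went down to 0.19. CLDN1, CLDN7 and CLDN10 thus kept values of 0.61 to 0.77 with each other, and CLDN3, CLDN4, CDH1 and EPCAM values of 0.57 to 0.79. F11R, also without severe 5, had 0.68 with EPCAM and 0.59 with CDH1. Over the 11 arrays CLDN7 had 0.74 with EPCAM, more than its 0.51 with CLDN1, so this grouping rests on leaving out severe 5. These pairs share arrays and hence any difference in tissue makeup, and they are given as a description.

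**Figure D5:**
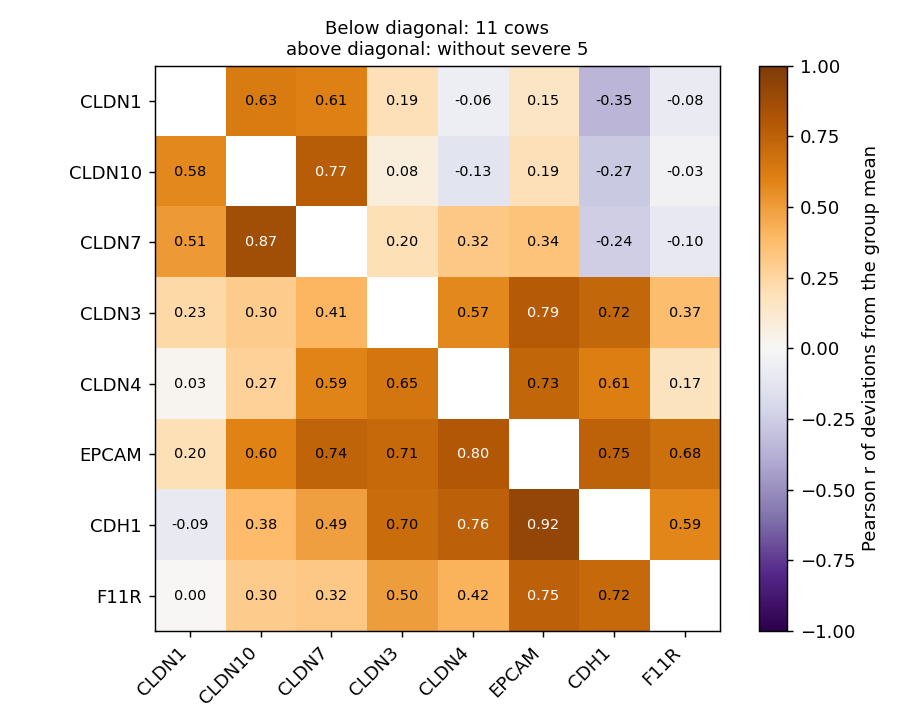
Pearson correlation of deviations from the group mean between 8 genes, over 11 cows below the diagonal and without severe 5 above it. Without severe 5, CLDN1, CLDN10 and CLDN7 form 1 block and CLDN3, CLDN4, EPCAM and CDH1 another, with values between the blocks from -0.35 to 0.34. The blocks were drawn after seeing the values and leave out F11R, and over 11 cows they are less apart (CLDN7 and EPCAM 0.74).

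Among 7127 other genes that were not dim, the 6 whose deviations were most like those of the 8 genes, by the highest median correlation over the 11 arrays, were ST14 (0.77), SLC44A4 (0.76), CAPN5 (0.76), PACSIN3 (0.75), LSR (0.75) and TSPAN1 (0.74). ST14 is matriptase, a membrane protease of epithelial cells that can cut EPCAM, LSR is a protein of the corners where 3 epithelial cells meet, and SLC44A4 is a choline transporter. ST14 was at 7.23 ± 0.52 in severe cows (SD, n = 6), against 7.31 ± 0.53 in mild cows (SD, n = 5). Severe 5 was the lowest of all cows for ST14, PACSIN3 and LSR, and the lowest severe cow for CAPN5. The ranking includes severe 5, and how far it rests on that cow was not tested. The lowest correlation of each of the 6 with any of the 8 genes ran from 0.09 for LSR to 0.30 for PACSIN3. PACSIN3, a membrane-shaping protein, differed by -0.26 ± 0.09 (SE, limma adjusted p = 0.317).

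Other parts of the junctions were then counted from lists of related genes. In the lists below, limma called 0 members in either direction at an adjusted p under 0.05, and counts at an unadjusted p under 0.05 are given beside the 5.88% of all probe sets that were lower and the 6.97% that were higher. Of 9 other claudins measured, 4 averaged lower and 5 higher in severe cows, with a median of 0.000890 and 0 below the unadjusted limit, and 5 of the 9 were dim. CLDN5, the claudin of blood vessel walls, was at 0.36 ± 0.22 (SE). Of 7 endothelial markers 4 averaged higher and 3 lower in severe cows, with a median of 0.07, and 1, the dim KDR, was lower at the unadjusted limit. CLDN11, a claudin best known from myelin and testis, was dim on average and differed by 0.12 ± 0.09 (SE; -0.17 ± 0.29 on its other probe set).

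Of 17 tight junction scaffold and polarity genes 11 averaged lower and 6 higher, with a median of -0.04, or 6 lower and 11 higher without severe 5 and mild 2. PALS1, a scaffold of the Crumbs polarity complex, was the member with an unadjusted p under 0.05. Its mean was 7.86 ± 0.23 for severe cows (SD, n = 6), against 8.12 ± 0.12 for mild cows (SD, n = 5). Severe minus mild was -0.26 ± 0.11 (SE, limma adjusted p = 0.373), and its other probe set gave -0.64 ± 0.30 (SE). PARD6A, a partner of atypical protein kinase C, was dim and differed by -0.22 ± 0.10 (SE).

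Of 6 adherens junction genes 3 averaged lower and 3 higher, and 1, JUP, was lower at the unadjusted limit. JUP, plakoglobin, which links cadherins to the cytoskeleton in both adherens junctions and desmosomes, was 8.82, 8.69, 9.02, 8.74, 8.48 and 8.72 in severe 1 to 6, against 9.13, 9.13, 9.17, 8.90 and 9.05 in mild 1 to 5. In 5 of 6 severe cows JUP lay below the lowest mild cow. Its log2 difference was -0.33 ± 0.09 (SE), with a limma p of 0.00395, an adjusted p of 0.291 and an exact two-sided permutation p of 0.00866. With the keratin covariate JUP was at -0.33 ± 0.10, and without severe 5 and mild 2 at -0.27 ± 0.09 (SE). With the neutrophil covariate, which does not overlap between the groups, JUP was at -0.17 ± 0.17 (SE). The catenin genes CTNNB1 and CTNNA1 were near 0, with differences of 0.02 ± 0.10 and 0.04 ± 0.10 (SE). CDH3, P-cadherin, ran from 7.29 to 8.95 in severe and from 6.78 to 10.1 in mild cows, with a difference of 0.27 ± 0.52 (SE).

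All 7 measured desmosome genes had lower means in severe cows, with a median difference of -0.21 and 0 below the unadjusted limit. For DSC3, which is dim like PKP1, that difference was -2.72e-05. PKP2, a plakophilin of the desmosome plaque, had a mean of 5.51 ± 0.55 for severe cows (SD, n = 6), against 6.21 ± 0.66 for mild cows (SD, n = 5). Its main probe set was dim in 4 of 6 severe cows and in 0 of 5 mild cows. Severe minus mild was -0.70 ± 0.32 (SE, limma adjusted p = 0.391). The other PKP2 probe set gave -0.45 ± 0.18 (SE, limma adjusted p = 0.341) and lay below the unadjusted limit, which the main one did not. PKP4 differed by -0.23 ± 0.14 (SE). Without severe 5 and mild 2 the list split into 4 lower and 3 higher members with a median of -0.02, and PKP2 was at -0.26 ± 0.21 (SE). Mild 2, at 7.37, was the highest cow for PKP2, above the next mild cow at 6.13.

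Among 5 proteases and inhibitors that act on EPCAM or E-cadherin, 3 averaged lower and 2 higher, and 0 lay below the unadjusted limit. SPINT2, which inhibits matriptase, differed by -0.31 ± 0.21 (-0.09 ± 0.17 without severe 5 and mild 2) and ADAM10, a sheddase of E-cadherin, by 0.17 ± 0.08 (SE). The other ADAM10 probe sets were at 0.16 ± 0.09 and -0.06 ± 0.23 (SE). Among 4 simple epithelial keratins 2 averaged lower and 2 higher, and 0 lay below the unadjusted limit. KRT7 was at -0.11 ± 0.24, KRT18 at 0.11 ± 0.26, KRT19 at -0.04 ± 0.33 and the dim KRT8 at 0.08 ± 0.08 (SE).

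Of 6 epithelial transcription and splicing factors 4 averaged lower and 2 higher, 1 and 5 without severe 5 and mild 2. Over all cows 0 of them lay below the unadjusted limit. ESRP1, an epithelial splicing factor, differed by -0.52 ± 0.36, or -0.03 ± 0.22 without these arrays, and ELF3, an epithelial ETS factor, by 0.22 ± 0.20 (SE). Both measured repressors of epithelial genes averaged higher in severe cows, and 1, ZEB1, was higher at the unadjusted limit. ZEB1 was 9.14, 9.59, 9.19, 9.21, 9.16 and 9.003 in severe 1 to 6, against 8.89, 8.23, 8.96, 9.11 and 9.11 in mild 1 to 5, and severe minus mild was 0.36 ± 0.16 (SE, limma adjusted p = 0.377). Mild 2 stood lowest, and without it the difference was 0.20 ± 0.11 (SE). SNAI1 differed by 0.48 ± 0.28 (SE; 0.13 ± 0.17 on its other probe set) and was highest in severe 5, at 8.07. Both genes are also expressed by stromal cells.

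Markers of other cells, which come from the same tissue pieces, differed in size. Of 7 stromal fibroblast markers 3 averaged lower and 4 higher in severe cows, with a median of 0.16, and 1, PDGFRA, was higher at the unadjusted limit. The collagens COL1A1, COL1A2 and COL3A1 were at -0.15 ± 0.12, -0.13 ± 0.13 and -0.03 ± 0.10, and DCN, LUM and PDGFRB at 0.16 ± 0.13, 0.44 ± 0.26 and 0.21 ± 0.11 (SE). PDGFRA differed by 0.97 ± 0.27 (SE, limma adjusted p = 0.289), but by 0.17 ± 0.08 and 0.13 ± 0.25 (SE) on its other 2 probe sets. Among the endothelial markers CDH5 was at 0.24 ± 0.11 (-0.01 ± 0.23 on its other probe set) and VWF at -0.29 ± 0.45 (SE). The dim KDR was at -0.24 ± 0.09, and its other probe set at 0.01 ± 0.05 (SE). Of 5 smooth muscle markers 4 averaged lower and 1, MYH11, higher in severe cows, with a median of -0.28 and 0 below the unadjusted limit. TAGLN was at -0.44 ± 0.28, ACTA2 at -0.28 ± 0.24, DES at -0.39 ± 0.39, CNN1 at -0.28 ± 0.35 and MYH11 at 0.14 ± 0.26 (SE). The median difference was 2.67 over 5 neutrophil markers and 1.08 over 5 pan-leukocyte markers. S100A8 was at 3.24 ± 0.66, CXCR1 at 2.67 ± 0.45, SRGN at 1.64 ± 0.36 and CD53 at 1.61 ± 0.37 (SE). In both immune lists 5 of 5 members were higher at an unadjusted p under 0.05. The part of these cells in the junction gene values was not tested beyond the covariate fits above.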

How the data were processed

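RNA of endometrium from 11 cows, 6 severe and 5 mild, was measured on 1 Affymetrix bovine array each. The deposited values are log2 values made by the authors with RMA, per the submitters' processing notes. That they are on a log2 scale was judged by their range, 2.63 to 14.6. Of the RMA version the sources used here say nothing (not given in the sources used here). All 11 arrays had the same median, so a shift shared by every transcript is lost. An array has no read depth, and the number of arrays limits the precision.

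Of 24128 probe sets 112 controls were left out. The platform annotation of 2016 paired 13292 of the rest with a single symbol and 86 with several, and did not list 10638. Symbols were checked through Entrez numbers with a RefSeq table of ARS-UCD2.0, which matched 13263 and renamed 0. Severe was compared with mild over all 24016 probe sets with the two-sided moderated test of limma 3.58.1 (R 4.3.3), Benjamini-Hochberg adjustment and a threshold of 0.05, and single genes also by an exact permutation over 462 splits. The genes, lists, tests and alternatives were chosen with earlier results of these data known. Named genes are the 9 measured ones, in each other list the members past the threshold or else the 2 with the smallest p, and the 6 genes most alike. Other genes were named after their values were seen. On simulated data of 24016 probe sets with independent noise limma called 50% of changes of 0.5, 90% of 1, 100% of 2 and 98% of 3 log2 units, with 13 false among 182 calls. The changes were put into probe sets drawn at random, each with its own spread, so these rates do not hold for the junction genes. In the real data CLDN10 at -0.997, CXCR1 at 2.67 and S100A8 at 3.24 were not called (limma adjusted p 0.359, 0.215 and 0.248). Replicate numbers only name the cows. Cows had been blocked on parity, condition and yield, but the block of a cow is unknown here and no batch is labelled, so neither entered a fit. Alternatives were a filter on dim probe sets, other normalizations, variance and weight settings, probe set choices, keratin and neutrophil covariates, values relative to keratins and each cow left out. The fits without severe 5 and mild 2, with KRT18 and KRT19 alone, and relative to EPCAM were added after seeing the data. Figures were drawn in Python 3.11.15 (matplotlib 3.10.9).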

Additional observations from a re-analysis of the deposited data

Results flagged for a closer look

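In 12 of 90 groups of cows checked for the named genes, 1 cow stood apart from the rest of its group by more than Dixon's 95% limit for the gap divided by the range, which chance exceeds in about 1 in 20 groups. The same cow can be counted for genes that vary together. The named genes include the 6 picked because their deviations were most like those of the junction genes over these same arrays. ST14, CAPN5, PACSIN3 and LSR are among these 6, so a cow apart in the junction genes tends to be apart in them through the choice. The 1 in 20 is therefore no measure for the count of 12. Severe 5 was that cow in 6 of the 12. It was lowest for EPCAM, at 8.69 against 10.36 in the next severe cow, for CDH1, at 6.71 against 8.10, for ST14, at 6.18 against 7.24, for CAPN5, at 7.10 against 7.69, for PACSIN3, at 6.52 against 6.81, and for LSR, at 6.23 against 7.15.

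The other 6 involved other cows. Mild 4 was lowest on the second F11R probe set, at 7.09 against 7.53 in the next mild cow. Mild 1 was highest for PARD6A, at 5.29 against 4.96. Mild 2 was highest for PKP2, at 7.37 against 6.13, and lowest for ZEB1, at 8.23 against 8.89. Severe 2 was highest for ZEB1, at 9.59 against 9.21, and severe 1 lowest for PDGFRB, at 5.51 against 5.84.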

How the results depend on the processing

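No paired analysis was possible because replicate numbers were given in accession order and pair no cows. At an adjusted p under 0.05 limma called 0 of the 9 genes over all 11 cows, and 1, CLDN10, relative to KRT8, KRT18 and KRT19 (log2 difference -1.05, adjusted p = 0.0314). On that scale every gene had the same SE, 0.29, so the limma p of CLDN10 does not measure its own spread between cows. The exact permutation p of CLDN10 was 0.0628. Over the other alternatives run adjusted p of CLDN10 lay between 0.193 and 1.00. With each cow left out in turn, the count of probe sets called was 0 to 16 (16 without severe 1 and 2 without severe 3), that of junction genes 0 to 0, and that of neutrophil markers 0 to 1. At an unadjusted p under 0.05 probe sets ran from 969 to 2010 lower and 1190 to 2091 higher, and junction genes from 0 to 3 lower and 0 to 1 higher. The 1412 lower and 1673 higher probe sets became 663 and 758 with 1 probe set per gene, where fewer are tested, and 540 and 427 with the neutrophil covariate. The 2 lower junction genes became 0 with that covariate and without severe 5 and mild 2, and 1 relative to EPCAM. The count of 0 higher became 1 with array weights, with either keratin covariate and relative to the 3 keratins, and 4 without severe 5 and mild 2. Leaving out severe 5 and mild 2 raises severe minus mild by construction in the junction genes that were not dim. The cause of the other shifts was not tested. EPCAM, at -0.00246, turned to 0.22 with array weights, 0.61 with the neutrophil covariate, 0.47 without severe 5 and mild 2, and ran from -0.20 to 0.33 with each cow left out. With the neutrophil covariate CLDN1 turned to 0.26 and CLDN3 to 0.30. CDH1 turned to -0.13 on its other probe set and ran from -0.00135 to 0.40 with each cow left out, and TJP1 from -0.092 to 0.00619. CLDN7, CLDN10, CLDN4 and F11R kept their sign in all alternatives run.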
